A study of Mus musculus with 6 samples.

Results

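Genes that dividing cells switch on to copy their DNA and to part their chromosomes were examined in immune cells of mouse livers that carried metastases of 4T07 breast tumor cells. Members were chosen by symbol alone, as single-gene features that start with Kif, Cenp, Mcm, Cdca, Cdc20, Cdc25, Cdc45, Cdc6, Aurk, Bub1, Ccna2, Ccnb, Ccne, Plk or Ncap, or that are Mki67, Top2a, Birc5, Ube2c, Nusap1, Pclaf, Rrm1, Rrm2, Stmn1, Tpx2, Pcna, Tyms or H1f5. The rule found 45 members among the 5301 features of the 3 matrices, one per site. Of these, 42 were in the matrix of adjacent tissue, 25 in that of micrometastasis, 27 in that of macrometastasis and 18 in all 3. No feature of the Aurk, Bub1, Ccna2, Ccne, Cdc45 or Cdc6 groups, nor Pcna or Plk1, was analysed here. The symbols also brought in genes without a division role in the list used, mainly transport kinesins (Kif1b, Kif1c, Kif3a, Kif3b, Kif13b, Kif16b, Kif21b, with Kif2a) and the stress-induced kinases Plk2 and Plk3. With Cdca7l these made 11 such members, against 34 with one. Of the 18 members shared by all matrices, 14 had a division role (Birc5, Ccnb2, Cdc20, Cdc25b, Cenpf, H1f5, Mcm3, Mki67, Nusap1, Pclaf, Rrm2, Stmn1, Top2a and Ube2c) and 4 did not (Kif13b, Kif1b, Kif21b and Plk2).

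The cells came from Balb/c mice that received 4T07 cells through the heart, either Ctrl cells or cells in which Tim3 (Havcr2) was knocked down with a short hairpin RNA (Tim3-KD). The knockdown was in the tumor cells, and the sorted immune cells of all libraries were those of the host. CD45+ cells were sorted at day 3 from micrometastasis and from tumor-free adjacent tissue of the liver, and at day 12 from macrometastasis. Each of the 6 groups (3 sites, Ctrl or Tim3-KD) was 1 library made from a pool of 2 mice, so no value below has a replicate, no p-value is given, and every interval covers counting error alone.

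A cell that divides first licenses its replication origins, with the Mcm helicase, and makes DNA building blocks, with ribonucleotide reductase (Rrm1, Rrm2) and thymidylate synthase (Tyms), while Pclaf rides on the sliding clamp of the replication fork. Mitosis then needs cyclin B and its kinase (Ccnb1, Ccnb2, switched on by the phosphatase Cdc25b), the centromere and kinetochore proteins (Cenpa, Cenpe, Cenpf), motor proteins of the spindle (Kif11, Kif23, Kif4), the chromosomal passengers (Birc5, Cdca8) and the anaphase promoting complex, which Cdc20 activates and Ube2c supplies with ubiquitin. In blood formation this program runs in progenitors, in early neutrophil precursors and in young monocytes and lymphocytes, and it is shut off in mature neutrophils, which no longer divide.

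The promoters of the members showed letters that such genes are known for. RefSeq windows of 300 bases around the start (GRCm38.p6, 250 before it and 50 from it on) were found for 40 of the 45 members, and 3 motifs were searched on both strands: an E2F-like motif, the cell cycle homology region (CHR) and the CCAAT box. The E2F-like motif was met by the letters CGCGAAA or by their variant CGGGAAA, and also by the forms CGCCAAA as well as CGGCAAA. The CHR was met by the letters TTTGAA or by TTTAAA, which reads the same on both strands. Of the 31 members with a division role and a window, 22 (71.0%) held CHR letters, 23 (74.2%) held CCAAT and 11 (35.5%) held E2F-like letters. Over all 27025 genes with a window these shares were 27.8%, 37.9% and 6.85%, and over the 4012 other genes of the matrices they were 19.02%, 37.1% and 10.2%. CHR and CCAAT letters stood together in 18 of the 31 (58.1%), against 10.9% of all genes and 6.93% of the other genes of the matrices. Of the 9 members without a division role, 1 held CHR letters, 4 held CCAAT, none held both, and 2 (22.2%) held E2F-like letters. The windows below run from 160 bases before the start to 20 after it, 5′ to 3′ on the gene's strand, and are shown because they set 4 mitosis genes beside 3 replication genes and Plk2, which lay on the other side of 1 from them in each comparison of Tim3-KD with Ctrl. Capitals mark the motif letters on either strand.
Ccnb2, chr9:70421535-70421714, minus strand: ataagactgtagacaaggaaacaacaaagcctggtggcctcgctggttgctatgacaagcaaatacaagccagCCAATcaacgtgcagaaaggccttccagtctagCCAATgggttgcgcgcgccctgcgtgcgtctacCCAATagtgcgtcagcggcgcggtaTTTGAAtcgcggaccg
Cdc20, chr4:118437324-118437503, minus strand: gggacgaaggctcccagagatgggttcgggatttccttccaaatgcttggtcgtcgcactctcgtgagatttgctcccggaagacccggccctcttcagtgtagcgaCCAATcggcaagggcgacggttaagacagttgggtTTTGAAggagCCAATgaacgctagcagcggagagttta
Ube2c, chr2:164769769-164769948, plus strand: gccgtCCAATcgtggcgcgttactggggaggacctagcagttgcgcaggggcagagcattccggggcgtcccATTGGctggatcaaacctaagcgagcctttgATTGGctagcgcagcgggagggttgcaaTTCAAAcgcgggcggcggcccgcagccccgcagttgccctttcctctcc
Top2a, chr11:99024170-99024349, minus strand: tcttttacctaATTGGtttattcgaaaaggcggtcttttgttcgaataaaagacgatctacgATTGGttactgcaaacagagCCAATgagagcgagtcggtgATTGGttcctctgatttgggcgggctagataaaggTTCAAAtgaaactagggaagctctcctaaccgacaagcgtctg
Rrm2, chr12:24708094-24708273, plus strand: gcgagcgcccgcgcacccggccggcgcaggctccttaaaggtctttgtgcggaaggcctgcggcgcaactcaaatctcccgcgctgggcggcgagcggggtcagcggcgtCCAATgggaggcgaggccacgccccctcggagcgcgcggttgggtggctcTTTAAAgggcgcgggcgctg
Pclaf, chr9:65890163-65890342, plus strand: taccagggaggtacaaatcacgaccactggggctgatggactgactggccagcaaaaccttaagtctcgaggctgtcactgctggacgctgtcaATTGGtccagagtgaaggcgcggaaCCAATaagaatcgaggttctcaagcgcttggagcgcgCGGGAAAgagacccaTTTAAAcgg
Mcm3, chr1:20820293-20820472, minus strand: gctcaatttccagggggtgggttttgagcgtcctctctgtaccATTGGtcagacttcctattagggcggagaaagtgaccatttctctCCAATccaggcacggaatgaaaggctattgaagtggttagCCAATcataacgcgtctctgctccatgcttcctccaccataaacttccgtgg
Plk2, chr13:110394884-110395063, plus strand: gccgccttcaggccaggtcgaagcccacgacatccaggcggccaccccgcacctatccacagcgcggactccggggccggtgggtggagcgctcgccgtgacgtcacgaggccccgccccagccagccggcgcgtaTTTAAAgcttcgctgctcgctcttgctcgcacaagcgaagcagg

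Ccnb2, the cyclin B2 gene, had 3 CCAAT boxes, which began 87, 54 and 21 bases before the start, and TTTGAA from base 5 of the transcript. Cdc20 had TTTGAA 18 bases before the start between CCAAT boxes at 53 and 8 bases. Ube2c held TTTGAA on the other strand (29 bases before the start), as did Top2a (23 bases). Rrm2 had 1 CCAAT box at 50 bases and TTTAAA at its first base, Pclaf had E2F-like letters across its start, and the 3 CCAAT boxes of Mcm3 began 117, 72 and 32 bases before it. Mcm3 also held E2F-like letters, from bases 21 and 39 of the transcript, just past the stretch shown. Plk2 held TTTAAA, which is also a TATA-like run, 24 bases before its start, and neither CCAAT nor E2F-like letters. Nusap1 held E2F-like letters near the far end of its window (243 bases) and neither of the other motifs. These matches describe letters and not bound sites.

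The 6 libraries held 23008 cells. They ran from 542 cells (adjacent tissue, Tim3-KD) to 5502 (macrometastasis, Tim3-KD), with totals of 7086539 to 79971971 unique molecular identifiers (UMIs) and medians of 6300 to 10248 UMIs per cell. Havcr2 reads in these host cells do not check the knockdown, and its level was 4.67 and 5.36 CPM (UMIs of a gene per 1000000 UMIs of the cells) in adjacent tissue (Ctrl first), with 15.6 and 4.14 for micrometastasis and 12.7 and 8.42 at day 12. Ptprc, which encodes CD45, was not analysed here. Between 0 and 11 cell barcodes were shared by any pair of libraries. The authors had removed doublets, and a doublet score computed anew from the recovered UMIs of each library was over 0.15 in 6.62% to 11.5% of cells. Clustering without the members and other cell cycle genes gave 27 clusters, of which 25 were named from marker genes and 2 (clusters 13 and 17) were not. Endothelial-like cells made up 2.75% of all cells although the sort was for CD45. The adjacent tissue library of Tim3-KD stood apart: it held 19 mature neutrophil-like cells (3.51%) and no neutrophil precursor-like or haematopoietic progenitor-like cell, against 650 (36.1%), 264 and 79 in the adjacent tissue of Ctrl.

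The members marked few cell types. Neutrophil precursor-like cells (clusters 7 and 8) were 8.78% of all cells and held 51.3% of all UMIs of the 18 shared members, haematopoietic progenitor-like cells (cluster 11) were 3.07% and held 18.2%, and monocyte-like cells were 9.48% and held 16.1%. The summed 18 members reached 5285 CPM (95% Poisson interval 5245 to 5325) in cluster 19, monocyte-like cells with F13a1 and Ly6c2. Their sum was 3596 in cluster 8, precursors with Elane and Mpo, and 3485 in cluster 22, B-like cells with Vpreb3, a gene of immature B cells. It was 3293 in cluster 11 and 3126 in cluster 7, precursors with Ltf and Fcnb. Basophil or mast-like cells (cluster 24) had 2199, the T-like clusters 20 (Ctla4, Ikzf2) and 18 (Cd8a, Cd8b1) had 2162 and 2138, and NK or ILC1-like cells had 1912. The 5 mature neutrophil-like clusters lay between 109 and 286, and the larger Kupffer or macrophage-like cluster at 256. These cells also differ in depth, with median UMIs of 28537 and 39299.5 per cell in clusters 7 and 8 against 4719 to 11025 in the mature neutrophil-like clusters.

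**Figure D1:**
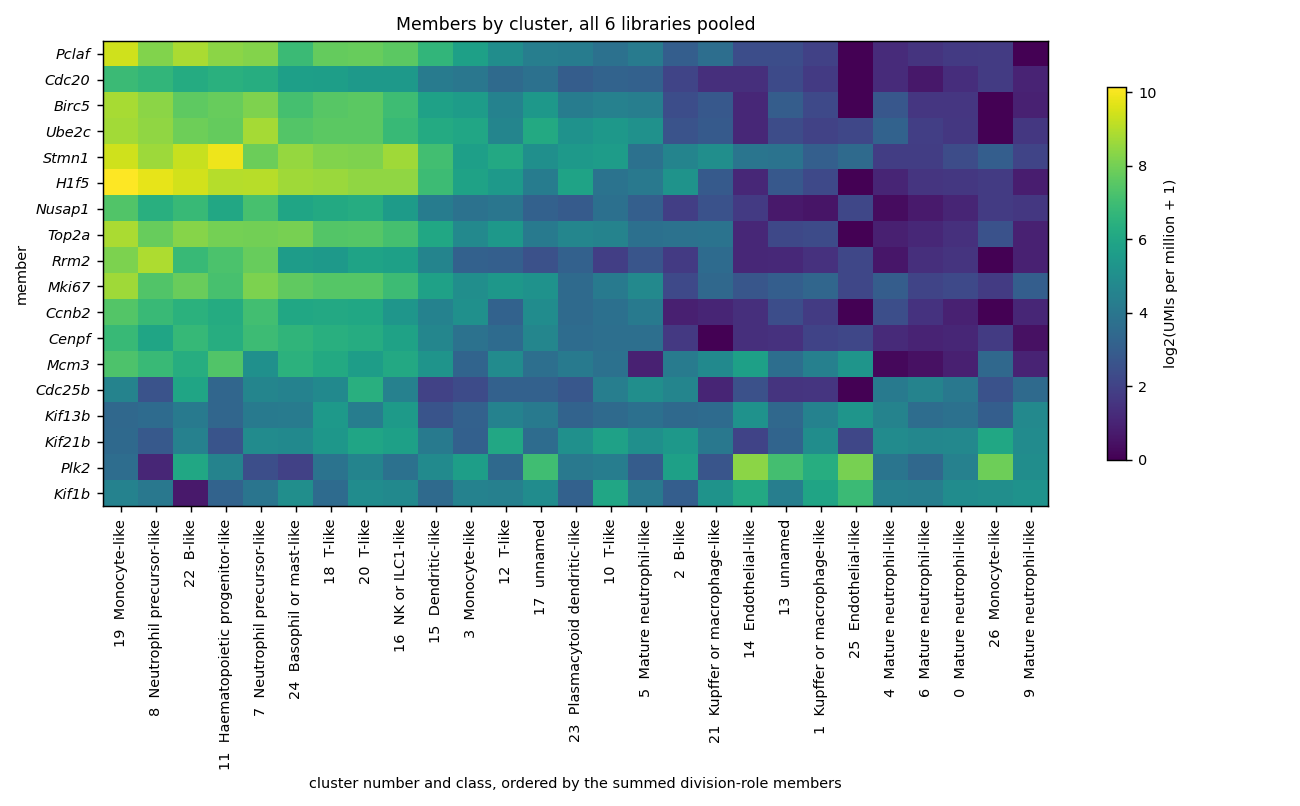
Level of the 18 shared members (rows, by their rank correlation with the division-role members) in 27 clusters (columns, ordered by the summed division-role members), as log2(CPM + 1), all libraries pooled. The division-role members other than Cdc25b are bright in the same clusters on the left, while Cdc25b, Kif13b, Kif21b, Plk2 and Kif1b are not.

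Across the 27 clusters, 12 of the 14 division-role members followed the sum of the others with a Spearman correlation of 0.91 to 0.97, given as a description since the clusters share libraries and depth. Mcm3 had 0.70, and Cdc25b had 0.33. Mcm3, a subunit of the replicative helicase, was found at 166 CPM in the progenitor-like cluster 11 and also at 52.7 in endothelial-like cluster 14 and 20.2 in Kupffer or macrophage-like cluster 1, where Rrm2 had 1.17 and 1.74. Cdc25b had its highest level, 83.8, in the T-like cluster 20, and 34.7% of its UMIs were in mature neutrophil-like cells, against 0.317% for Mcm3 and 0.504% for Rrm2. Of the members without a division role, Plk2 had -0.41, with its highest level in endothelial-like cluster 14 (334 CPM), and Kif1b had -0.46, while Kif13b and Kif21b both had -0.12.

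The division-role members did not share one peak. Rrm2, the small subunit of ribonucleotide reductase, was highest in cluster 8 (469 CPM against 220 in cluster 7), and 73.9% of its UMIs were in neutrophil precursor-like cells. Stmn1, a microtubule-destabilizing protein, was highest in the progenitor-like cluster 11 (937), which with 37.9% of its UMIs held more of them than the precursors (35.5%). Ube2c (438) and Cenpf (121) were highest in cluster 7. Pclaf (674), H1f5 (1121), Top2a (465), Mki67 (406), Birc5 (442), Ccnb2 (170), Nusap1 (166) and Cdc20 (120) were highest in the monocyte-like cluster 19. UMIs of the replication genes Mcm3, Pclaf and Rrm2 numbered 0.916 (95% interval 0.903 to 0.930) per UMI of the mitosis genes Birc5, Ccnb2, Cdc20, Cdc25b, Cenpf and Ube2c in cluster 8 and 0.513 (0.504 to 0.522) in cluster 7. The ratio was 0.953 in cluster 11 and 0.861 in cluster 19, and from 0.0552 to 0.213 in the 5 mature neutrophil-like clusters, where the level of these genes was low. It was above 1 in other clusters of low level, at 4.97 (3.34 to 7.62) in endothelial-like cluster 14 and 1.502 and 3.10 in the Kupffer or macrophage-like clusters 1 and 21. Cdc25b made up 1421 of the 3889 mitosis UMIs of the mature neutrophil-like class. Without it, a choice made after seeing the data, the ratio of the class went from 0.174 to 0.275 (0.252 to 0.299), the 5 clusters lay between 0.1004 and 0.649, and clusters 7 and 8 were at 0.524 and 0.921.

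**Figure D2:**
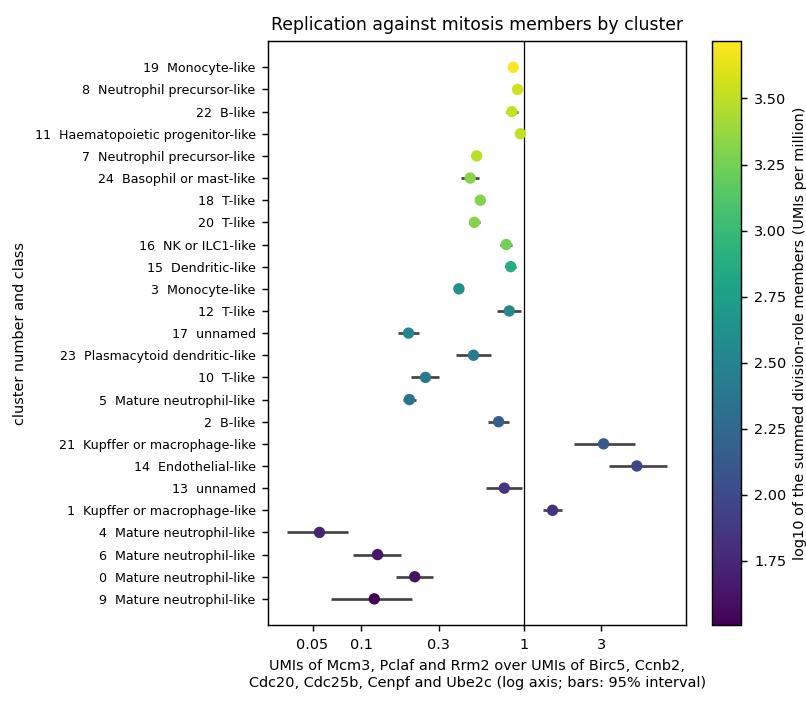
Ratio of UMIs of 3 replication members to UMIs of 6 mitosis members in the clusters with at least 100 such UMIs, all libraries pooled (log axis, bars are 95% counting intervals, color is the summed level of the division-role members). Clusters 8 and 11 lie near 1, cluster 7 near 0.5, and the mature neutrophil-like clusters below 0.3, which without Cdc25b lay between 0.1004 and 0.649.

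In micrometastasis the members were higher in Tim3-KD than in Ctrl. The 18 shared members summed to 2604 CPM in Tim3-KD and 1479 in Ctrl, a ratio of 1.76 (95% interval 1.75 to 1.77), with 208271 and 82800 UMIs. Of the 25 members of this matrix, 14 were at least 1.5-fold higher in Tim3-KD, against 2.7% of the 2669 genes of the matrix, and 1 was at least 1.5-fold lower, against 37.5%. All 14 had a division role, out of 17. The median ratio of the members was 1.55, and that of all genes of the matrix 0.741. The trimmed mean of all genes was at -0.44 on the log2 scale, and relative to it the summed members had a ratio of 2.39. On the CPM scale the ratio was 2.09 (2.06 to 2.12) without precursor-like and progenitor-like cells. The matrix holds genes that vary between cells, so that this background is not the whole transcriptome.

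H1f5, a linker histone of dividing cells, differed most, with 574 CPM in Tim3-KD and 235 in Ctrl (ratio 2.44, 2.39 to 2.49). Birc5, the survivin gene, had 221 and 114 (1.93, 1.88 to 1.99), and Ube2c had 260.0 and 139.9 (1.86). Mki67, the common marker of cycling cells, had 163 and 91.3 (1.79), and Top2a, which untangles DNA, had 184 and 104 (1.77). Mki67 was detected in 31.6% of Tim3-KD and 13.6% of Ctrl cells, and Birc5 in 30.8% and 11.7%. Rrm2 had 211 and 125 CPM (1.70), Mcm3 73.6 and 44.6 (1.65), Pclaf 237 and 157 (1.51) and Tyms, the thymidylate synthase, 78.3 and 46.4 (1.69). Among other mitosis members, Cdc20 had 65.4 and 38.2 (1.71), Cenpf 62.2 and 36.9 (1.69) and Ccnb2 84.1 and 51.4 (1.64). The 6 shared mitosis members summed to 711 and 395 CPM, and the 3 replication members to 522 and 326. The centromeric histone Cenpa (149 and 101, 1.48) and the kinetochore motor Cenpe (42.1 and 28.1) stood just short of 1.5-fold, and Cdc25b was at 1.24. Plk2 was lower, at 17.7 and 36.1 (0.490, 0.457 to 0.525). Kif3b, a transport motor, was at 0.770 and Plk3 at 0.812, and relative to the trimmed mean these became 1.04 and 1.10, so that their direction depends on the scale, while Plk2 stayed lower (0.664).

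**Figure D3:**
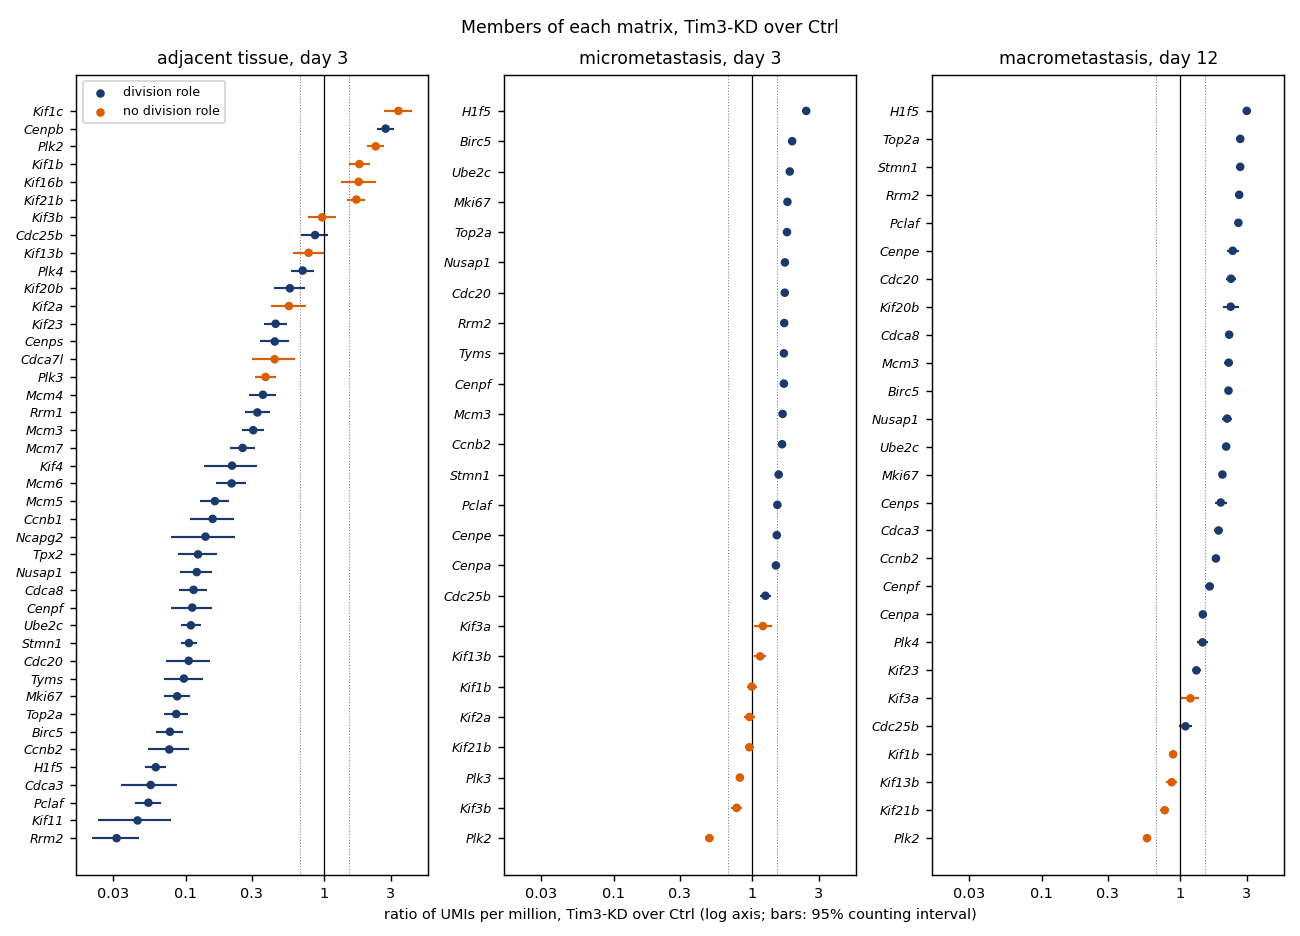
Ratio of CPM, Tim3-KD over Ctrl, for the members of each matrix (points, log axis, bars are 95% counting intervals, dotted lines at 1.5-fold). Division-role members lie right of 1 in both metastases and, other than Cenpb, left of 1 in adjacent tissue, and Plk2 lies on the other side at all 3 sites.

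In macrometastasis the pattern had the same direction. The 18 shared members summed to 1420 CPM in Tim3-KD and 681 in Ctrl (ratio 2.09, 2.06 to 2.11), and 2.51 relative to the trimmed mean of all genes (-0.27 on the log2 scale). On the CPM scale it was 1.84 (1.81 to 1.88) when precursor-like and progenitor-like cells were left out. Of the 27 members of this matrix, 18 were at least 1.5-fold higher (4.54% of all 2641 genes with at least 100 UMIs) and 1, Plk2, was at least 1.5-fold lower (23.3%). All 18 were among the 22 members with a division role. H1f5 again differed most, with 236 and 78.4 CPM (3.01, 2.90 to 3.12), followed by Top2a (102.3 and 37.9, 2.698) and Stmn1 (238 and 88.3, 2.697). Rrm2 (84.3 and 31.8, 2.65) and Pclaf (122 and 46.5, 2.62) had higher ratios than Mki67 (79.9 and 39.8, 2.01), Ccnb2 (44.0 and 24.4, 1.80) and Cenpf (39.1 and 24.0, 1.63). Cdca8, a chromosomal passenger, was at 2.25, Cdca3 at 1.88 and Cdc20 at 2.31. Members inside 1.5-fold were the mitotic kinesin Kif23 (1.30), Plk4, which duplicates centrioles (1.44), Cenpa (1.45) and Cdc25b (1.09, 0.971 to 1.22, an interval that holds 1). Plk2 was at 30.6 and 53.4 CPM (0.574), Kif21b at 0.771 and Kif13b at 0.865. Relative to the trimmed mean, Plk2 was at 0.692 and Kif21b at 0.929, while Kif13b crossed to 1.04.

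In adjacent tissue the members were lower in Tim3-KD over the whole library. The 18 shared members summed to 302 CPM in Tim3-KD and 2019 in Ctrl (ratio 0.1496, 0.143 to 0.156), from 2140 and 61810 UMIs, and the ratio was 0.0990 relative to the trimmed mean (0.60 on the log2 scale) and 0.276 as a mean over cells. Of 42 members, 32 were at least 1.5-fold lower, against 13.5% of 4459 genes, and 6 at least 1.5-fold higher, against 50.2%. Of the 42, 14 were in this matrix alone, among them Tpx2, Ccnb1, Kif11, Rrm1 and Mcm4 to Mcm7. A matrix keeps genes that vary between its cells, and only the Ctrl library here held precursor-like and progenitor-like cells. These counts and the ratios of those 14 are therefore not independent of how the genes were kept. Among the 32 members with a division role, 29 were lower. Rrm2 had 4.09 CPM in Tim3-KD (29 UMIs) and 129 in Ctrl (0.0318, 0.0213 to 0.0458). Tpx2, a spindle assembly factor, was at 0.123, Cdca8 at 0.114 and Ccnb1, cyclin B1, at 0.157. Kif11, the motor that pushes spindle poles apart and a member of this matrix alone, had 12 and 1150 UMIs (0.0451). Pclaf, a member of all 3 matrices, had 85 and 6807 (0.0540). H1f5 had 19.9 and 326 CPM (0.0609), and Mki67 12.4 and 143 (0.0870). The Mcm subunits were lower by less, at 0.163 for Mcm5, 0.215 for Mcm6, 0.258 for Mcm7, 0.307 for Mcm3 and 0.361 for Mcm4, as was Rrm1 (0.329). The 6 higher members were Kif1c (3.42), Cenpb (2.76), Plk2 (2.34), Kif1b (1.79), Kif16b (1.77) and Kif21b (1.70), of which Cenpb, a centromere-binding protein made in resting cells too, has a listed division role. Relative to the trimmed mean, 3 members were at least 1.5-fold higher (28.8% of genes). Without the precursor-like and progenitor-like cells, which the Tim3-KD library lacks, the summed members were at 302 and 1379 CPM, and the ratio was 0.219. Within clusters a ratio could be had in 2. The division-role members were at 0.933 (0.764 to 1.14) in the B-like cluster 2 and 1.08 (0.926 to 1.27) in the T-like cluster 10, and both intervals hold 1. For the summed 18 members, 1 of these 2 clusters had an interval below 1. T-like cells as a class were at 0.855 (0.779 to 0.939) for the summed members, and at 1.71 (1.52 to 1.93) without cells of a doublet score over 0.15.

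Between the Ctrl libraries, the sum of the shared members was lower in micrometastasis than in adjacent tissue and lower again in macrometastasis, while most single members lay within 1.5-fold in the first of these comparisons (17 of 22). The summed members were at 0.733 (0.725 to 0.741) in micrometastasis over adjacent tissue at day 3, and 0.596 relative to the trimmed mean of 0.30 on the log2 scale. Of the 22 members in both matrices, 4 were at least 1.5-fold lower (1.53% of 2283 genes), which were Stmn1 (0.611), Top2a (0.619), Nusap1, a microtubule bundler (0.628) and Mki67 (0.639), and 1 was higher (26% of genes), Plk2 (1.91). Relative to the trimmed mean 12 were lower (6.18% of genes). The median ratio was 0.763 for the 15 members with a division role and 1.18 for the 7 without one. Without precursor-like and progenitor-like cells the ratio of the summed members was 0.444 (0.436 to 0.453). Rrm2 was at 0.969 (0.932 to 1.01), which holds 1. Kif3b (1.26) and Kif2a (1.22) were the next highest, and relative to the trimmed mean they were at 1.02 and 0.993. From micrometastasis at day 3 to macrometastasis at day 12 the ratio of the summed members was 0.460 (0.454 to 0.466), and 0.316 relative to the trimmed mean of 0.54 on the log2 scale. With precursor-like and progenitor-like cells left out it was 0.654 in CPM. Of 21 members, 14 were at least 1.5-fold lower (6.89% of 1786 genes), led by Rrm2 (0.255, 0.241 to 0.271), Pclaf (0.297) and H1f5 (0.333), and 2 were higher (46% of genes), Kif1b (1.69) and Kif13b (1.53), with Kif21b at 1.49. Relative to the trimmed mean these 3 were at 1.16, 1.06 and 1.02, and 0 members were higher (17.9% of genes). Site and day changed together in this comparison and cannot be told apart. These comparisons share Ctrl libraries with those above.

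The libraries differed both in how many dividing cell types they held and in the level within them. In micrometastasis, neutrophil precursor-like cells were 7.66% of Ctrl and 20.0% of Tim3-KD cells, and progenitor-like cells 2.25% and 5.39%. By share of UMIs, precursor-like cells were 25.1% in Ctrl and 41.9% in Tim3-KD. With Tim3-KD levels in each class and the Ctrl shares of UMIs by class, the summed members would stand 1.38-fold above Ctrl. With Ctrl levels and the Tim3-KD shares of UMIs they would stand 1.37-fold above it. By the 26 clusters with cells of both libraries in place of classes these values were 1.24 and 1.55. In macrometastasis the corresponding values were 1.44 and 1.38 by class and 1.26 and 1.42 by cluster. No such value was computed for adjacent tissue, where several classes had no Tim3-KD cell.

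Within clusters 7, 8, 11 and 19 the differences in micrometastasis were small beside those of the whole libraries. There the summed members of Tim3-KD over Ctrl were at 1.06 (1.04 to 1.07) in cluster 8, 1.11 (1.09 to 1.13) in cluster 11, 1.11 (1.08 to 1.14) in cluster 19 and 1.24 (1.22 to 1.26) in cluster 7. Without cells of a doublet score over 0.15 these were 1.11, 1.16, 1.09 and 1.31. With clusters made from the cell cycle genes too, progenitor-like cells were at 0.994 (0.966 to 1.02), which holds 1. The replication genes Mcm3, Pclaf and Rrm2 were lower in clusters 7 (0.907, 0.874 to 0.940) and 8 (0.914, 0.889 to 0.940), where the 6 mitosis genes were higher (1.31, 1.28 to 1.35, and 1.12, 1.09 to 1.16). Of 17 division-role members, 0 were at least 1.5-fold higher in cluster 8 (4% of all genes there), 2 in cluster 7 (4.06%), 1 in cluster 11 (6.05%) and 1 in cluster 19 (8.48%), and 0 were lower in any of these (9.21%, 10.2%, 14.4% and 9.37% of genes). The monocyte-like cells of cluster 3, with Ccr2 and Ms4a4c, differed more: their summed members stood at 896 CPM in Tim3-KD and 462 in Ctrl (1.94, 1.85 to 2.03). In that cluster 15 of 16 division-role members were at least 1.5-fold higher, against 7.81% of 1627 genes. Its cells depend on the clustering. With the cell cycle genes in, the monocyte-like cluster with F13a1 and Ly6c2 grew from 416 to 709 cells, and that with Ccr2 and Ms4a4c went from 1700 to 1610. The clusters went both ways. Of the 15 clusters with at least 50 cells in both libraries, the summed 14 division-role members had an interval above 1 in 10 and below 1 in 4, and 5 were at least 1.5-fold higher and 3 lower. The lower ones were the T-like cluster 12 (0.0910, with no member of at least 100 UMIs there), the B-like cluster 2 (0.510) and the Kupffer or macrophage-like cluster 1 (0.588, 0.466 to 0.740). The mature neutrophil-like cluster 0 (0.751) followed. On the higher side, 9 of 15 division-role members passed in the mature neutrophil-like cluster 5 (12.4% of genes), where 32 of 951 Tim3-KD cells had at least 2 UMIs of these members when thinned to 1500 UMIs, 6 of 8 in the dendritic-like cluster 15 (17.6%) and 5 of 9 in the T-like cluster 20 (11.9%). As a class, mature neutrophil-like cells were at 262 and 165 CPM (1.59, 1.51 to 1.67), but the class held different clusters, with 951 of 2019 Tim3-KD and 427 of 1620 Ctrl cells in cluster 5. The summed members were at 1.44 in cluster 5, 0.9001 (0.774 to 1.05) in cluster 0 and 1.08 (0.932 to 1.25) in cluster 6. The class was at 0.963 with clusters made from the cell cycle genes too, so that its direction depends on the clustering. In macrometastasis cluster 3 was at 543 and 124 (4.38, 3.78 to 5.09), cluster 11 at 1.39 and cluster 7 at 1.15, which without cells of a high doublet score were 1.72 and 1.61. The clusters went both ways at this site too. Of 17 clusters, the 14 division-role members had an interval above 1 in 10 and below 1 in 4. For the summed 18 members the interval was above 1 in 7 and below 1 in 5. In cluster 11 the replication genes were at 2.04 (1.87 to 2.24) and the mitosis genes at 0.963 (0.906 to 1.02). Cluster 19 held 74 Tim3-KD cells and 1 Ctrl cell there, so that the monocyte-like ratio of macrometastasis as a class (17.0) compares different clusters, and without cells of a doublet score over 0.15 it was 6.999 (6.22 to 7.90). Dendritic-like cells were at 1.78 (1.63 to 1.94) at day 3 in micrometastasis, at 3.06 (2.85 to 3.27) at day 12 in macrometastasis, and without cells of a doublet score over 0.15 their ratios were 1.58 and 1.63.

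**Figure D4:**
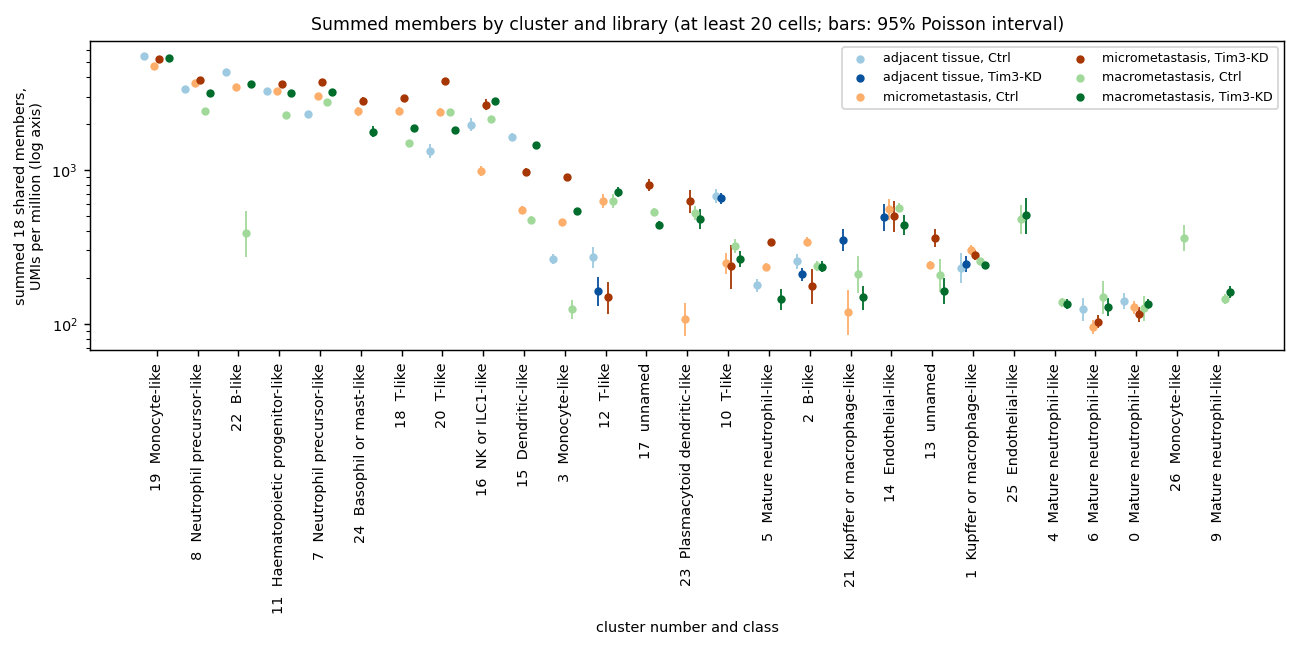
Summed CPM of the 18 shared members by cluster (ordered by the division-role members) and library, for clusters with at least 20 cells of a library (log axis, bars are 95% Poisson intervals). In clusters 19, 8, 11 and 7 the libraries lie between 2284 and 5513, with those of cluster 11 from 2284 to 3623, and clusters 3 and 22 spread more widely.

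The T-like and B-like cells went both ways. In micrometastasis the T-like clusters 18 and 20 were at 1.21 (1.14 to 1.29) and 1.57 (1.45 to 1.70), and cluster 12, with Xcl1 and Ifng, at 0.236 (0.180 to 0.305), with 149 CPM in Tim3-KD and 633 in Ctrl. In macrometastasis cluster 18 was at 1.26, cluster 20 at 0.756 (0.710 to 0.804) and cluster 12 at 1.14. Cells of a high doublet score move with these values. They made up 31.2% of cluster 20, 24.2% of cluster 18 and 11.3% of cluster 12, and without them the division-role members were at 11.004, 2.47 and 0.115 in micrometastasis (with them 1.59, 1.21 and 0.0910) and at 0.604, 1.24 and 0.154 in macrometastasis (with them 0.745, 1.27 and 1.17). Such cells were also 33.1% of cluster 11, 26.0% of cluster 19, 19.7% of cluster 8 and 15.2% of cluster 7. In the mature neutrophil-like clusters they were 0.709% to 2.81%. The shares did not follow the members everywhere, with 4.95% in cluster 22 and 24.4% in the plasmacytoid dendritic-like cluster 23. Values without these cells thus leave out many cells of clusters rich in the members. The part of cells of a high doublet score in the result was not tested. Of the immature B-like cells of cluster 22, micrometastasis held 142 in Ctrl (3484 CPM) and 2 in Tim3-KD, adjacent tissue 64 (4358) and 11 (313), and macrometastasis 24 (390) and 60 (3611). The mature B-like cells of cluster 2 were at 177 to 343 in all libraries.

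H1f5 was compared with other histone genes within the clusters. In micrometastasis it was at 1.84 in cluster 7, 1.15 in cluster 8, 1.70 in cluster 11 and 1.76 in cluster 19, where Mki67 was at 1.16, 1.09, 1.22 and 1.02, and in macrometastasis it was at 1.91 in cluster 7 and 1.80 in cluster 11. Other linker histone genes of the same clusters were mixed in micrometastasis, with H1f4 at 1.00, 0.967, 1.25 and 1.14, H1f2 at 1.06, 1.01, 0.883 and 1.55, H1f3 at 0.969, 0.890, 1.09 and 1.38, H1f0 at 1.03, 0.867, 0.846 and 1.204, and H1f1 at 0.701, 0.732, 1.15 and 1.08. In clusters 7 and 11 of macrometastasis H1f3 was at 1.15 and 1.53, H1f4 at 1.197 and 1.12, H1f2 at 0.943 and 0.822, and H1f0 at 0.413 and 0.389. The core histone genes were mixed too. H3c3 was at 0.207, 0.202, 0.229 and 0.206 in these 4 clusters, H4c4 at 1.02, 0.878, 0.943 and 0.893, and H2ax at 0.602, 0.576, 0.543 and 0.612. In clusters 7 and 11 of macrometastasis H3c3 was at 0.893 and 0.914, H4c4 at 0.886 and 1.04, H2ax at 0.613 and 0.548, and H2ac6 at 0.109 and 0.265.

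The members were also counted by cells at equal depth. Each cell was thinned to 1500 UMIs and scored for at least 2 UMIs of the 18 shared members. In micrometastasis 31.3% of Tim3-KD cells (95% exact binomial interval 30.1% to 32.6%) and 14.3% of Ctrl cells (13.3% to 15.3%) passed, a difference of 17.1 percentage points (15.5 to 18.7, Newcombe's method). In macrometastasis 12.7% and 9.02% passed (3.67 points, 2.48 to 4.86), a difference that was 1.28 points when cells were thinned to 3000 UMIs and 1.93 without cells of a high doublet score, and in adjacent tissue 6.09% and 19.8% (-13.7 points, -16.3 to -10.8). Without thinning the shares were 53.9% and 40.5%, 42.2% and 40.3%, and 50.6% and 51.3%. With the 14 division-role members alone, a list chosen after the data were seen, 29.0% and 11.2% of cells passed in micrometastasis, 9.69% and 4.52% in macrometastasis and 1.66% and 17.8% in adjacent tissue. Mature neutrophil-like cells passed in 0.362% to 1.68% of cells, in libraries with more than 19 of them. Median depths there were 5570 to 6671 UMIs. In adjacent tissue of Tim3-KD 1.66% of all cells passed (9 of 542 cells, median depth 10248). The highest mature neutrophil-like share, in micrometastasis of Tim3-KD, came from cluster 5, which held 32 of the 34 cells that passed. These 32 cells had a median of 33626 UMIs, against 9601 for the rest of that cluster. The other libraries had 0.362% to 0.769%. Cluster 5 was named mature neutrophil-like from 5 markers, with 0 of them among its 10 leading genes, so that its maturity is less sure.

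**Figure D5:**
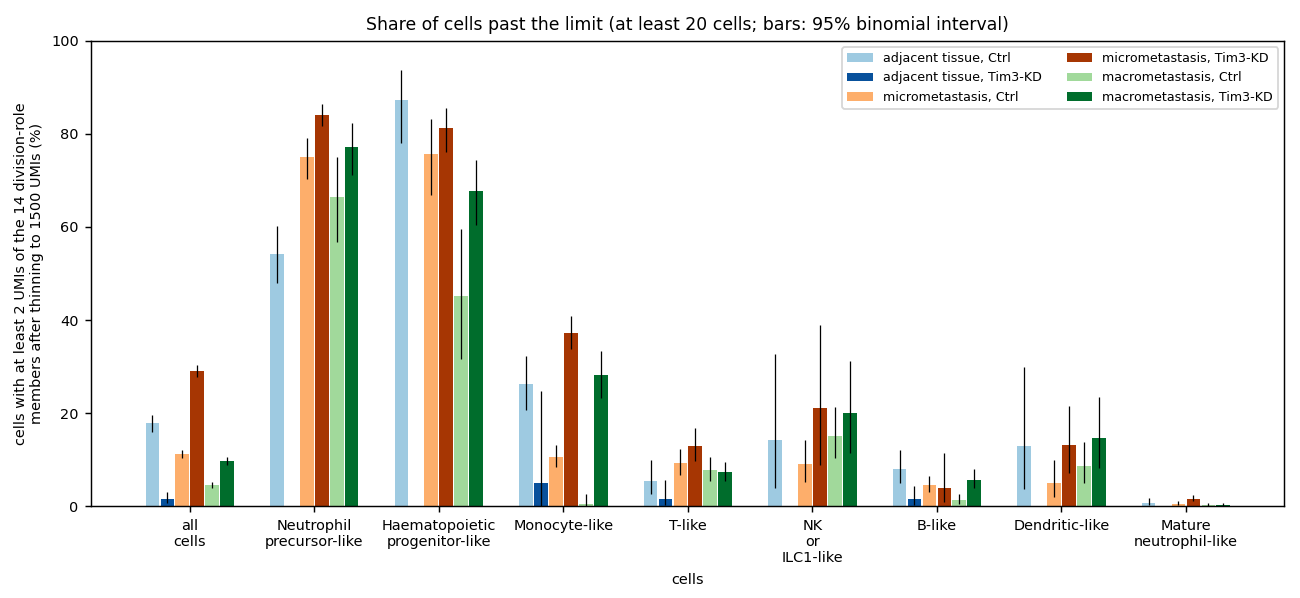
Share of cells (percent) with at least 2 UMIs of the 14 division-role members after thinning to 1500 UMIs, for all cells and 8 classes in each library with at least 20 such cells (bars start at 0, lines are 95% binomial intervals). Precursor-like and progenitor-like cells pass most often, mature neutrophil-like cells hardly ever, and monocyte-like cells pass in 37.3% of Tim3-KD and 10.6% of Ctrl cells of micrometastasis, with 229 and 51 of them in cluster 19.

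The shares by cell class rest on those 14 division-role members. Among neutrophil precursor-like cells, 84.1% of Tim3-KD and 74.9% of Ctrl cells of micrometastasis passed, 77.1% and 66.4% in macrometastasis, and 54.2% of Ctrl cells in adjacent tissue. Cluster 8 was 571 of the 1028 Tim3-KD and 146 of the 391 Ctrl precursor-like cells of micrometastasis. Within cluster 8 the shares there were 94.0% and 93.8%, and within cluster 7 71.8% and 63.7%. Among progenitor-like cells the share was 81.2% and 75.7% in micrometastasis, 67.8% and 45.3% (24 of 53 cells) in macrometastasis, and 87.3% of Ctrl cells in adjacent tissue. Monocyte-like cells passed in 28.1% of Tim3-KD and 0.5% of Ctrl cells of macrometastasis and in 26.3% of Ctrl cells of adjacent tissue, but different clusters held them. In macrometastasis 68 of the 74 Tim3-KD cells of cluster 19 passed. That cluster held 1 Ctrl cell, and the 1 Ctrl cell that passed was in cluster 3, where the shares were 8.51% and 0.658%. In micrometastasis cluster 19 had 229 Tim3-KD and 51 Ctrl cells, of which 94.3% and 90.2% passed, and cluster 3 had 11.1% and 4.27%. Of all cells that passed in micrometastasis, precursor-like cells were 51.0% in Ctrl and 58.0% in Tim3-KD. In macrometastasis of Ctrl, where few cells passed with these 14 members (222 of 4913, 4.52%), T-like and NK or ILC1-like cells were 16.7% and 12.6% of them, against 8.82% and 2.63% in Tim3-KD.

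Other cell cycle genes were taken from a fixed list. In micrometastasis 11 of 30 were at least 1.5-fold higher in Tim3-KD (2.7% of all genes) and 5 lower (37.5%), with a median ratio of 1.42. In macrometastasis 14 of 34 were higher (4.54%) and 2 lower (23.3%), with a median of 1.39. In adjacent tissue 3 of 43 were higher (50.2%) and 34 lower (13.5%), with a median of 0.298. Cdk1, the kinase that cyclin B activates, was at 1.76, 2.36 and 0.0940 at the 3 sites in that order, and Prc1, which bundles the midzone of the spindle, at 1.70, 2.04 and 0.104. Myb, a factor of progenitors, was at 1.38, 2.92 and 0.173. The D cyclins, which link growth signals to entry into the cycle, had the other direction in CPM, with Ccnd1 at 0.583, 0.535 and 4.52 and Ccnd2 at 0.645, 0.840 and 2.67, of which 0.840 lay at about the trimmed mean of all genes in macrometastasis (-0.27 on the log2 scale). The inhibitor Cdkn1a was at 0.704, 1.18 and 0.363. The median ratio of all genes was 0.741, 0.834 and 1.51 at the 3 sites in that order. In micrometastasis Cdkn1a thus lay near the median of all genes, and Ccnd2 and Ccnd1 lay less far from it than from 1.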

How the data were processed

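Immune cells sorted for CD45 from 6 liver samples had been sequenced with a droplet 3′ kit, 1 library per group. Per the submitters' processing notes, reads were trimmed with Trim Galore 0.4.3 and aligned with STAR 2.7.7a to GRCm38. The deposited values are scaled scores: the authors normalised each cell to 10000, took the logarithm, regressed out the total, scaled each gene within a site, capped values at 10 and kept variable genes alone, after removing doublets found with scrublet. The doublet score used here was computed again with scrublet on the recovered UMIs. Each score was turned back into UMIs and each cell's total recovered (whole within 0.05 UMI in at least 99.9973% of values of each matrix, and checked on simulated data). Scores at the cap (0.144% to 0.160%) hide higher counts. The unit differed from the counts assumed in the design, and no count model was used.

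Ratios compare CPM (UMIs of a gene over all UMIs) pooled over cells, with exact conditional intervals (95%), and members with at least 100 UMIs over both libraries were counted at 1.5-fold after adding 0.5 UMI. The trimmed mean leaves out 30% of genes at each end. Cells were clustered with scanpy 1.11.5 and leidenalg 0.10.2 (30 components, 15 neighbours, resolution 1) on 1593 features, without the cell cycle genes, and ties between names were settled after the clusters were seen. Members named were those of a list of well-known division genes and, in each comparison, the 3 of highest and 3 of lowest ratio, and other members were named with their role group or where a count was small. The members and lists were chosen with earlier results of these data known. Intervals cover counting error alone.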

Additional observations from a re-analysis of the deposited data

Results flagged for a closer look

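The summed 18 members differed in direction between sites. Their ratio of Tim3-KD over Ctrl was 0.1496 in adjacent tissue and 1.76 and 2.09 in micrometastasis and macrometastasis. With 1 library per group, the difference between sites was not tested, and the adjacent tissue library of Tim3-KD had 542 cells, none of them precursor-like or progenitor-like.

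Among T-like cells of micrometastasis, the summed members of cluster 12 were at 0.236 and those of clusters 18 and 20 at 1.21 and 1.57. This difference was not tested, and the Tim3-KD value of cluster 12 rests on 71 UMIs in 122 cells.

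In the T-like cluster 20, the ratio was 0.756 in macrometastasis and 1.57 in micrometastasis. This difference was not tested either, and cells of a doublet score over 0.15 were 31.2% of the cluster.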

How the results depend on the processing

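Within a site no paired analysis was possible because each group held 1 library, and for the same reason no replicate could be left out. The 5 ratios of the summed members kept their direction under each alternative run. In the order micrometastasis, macrometastasis, adjacent tissue (each Tim3-KD over Ctrl), micrometastasis over adjacent tissue and macrometastasis over micrometastasis (each Ctrl), a mean over cells gave 2.23, 1.502, 0.276, 0.702 and 0.592, the trimmed mean 2.39, 2.51, 0.0990, 0.596 and 0.316, leaving out cells of a doublet score over 0.15 gave 2.19, 2.12, 0.169, 0.639 and 0.359, and the division-role members alone 1.82, 2.41, 0.0942, 0.715 and 0.394. Without Stmn1 the first 4 were 1.79, 1.99, 0.158 and 0.756, and with all members of a matrix the first 3 were 1.69, 2.00 and 0.204. Without cells under 3000 UMIs, micrometastasis was at 1.74 and its Ctrl over adjacent tissue at 0.741. Without cells that had a member at the cap, macrometastasis was at 2.18 and its Ctrl over micrometastasis at 0.433. At 2-fold, with the share of all genes in brackets, 1 member was higher in micrometastasis (0.749%), 0 were lower in macrometastasis (10.6%) and 3 were higher in adjacent tissue (33.9%), and between Ctrl libraries 0 were higher (12.7%) and 0 lower (0.219%) in micrometastasis over adjacent tissue and 0 higher in macrometastasis over micrometastasis (21.9%). Relative to the trimmed mean, 0 were lower in macrometastasis (13%), 3 higher in adjacent tissue (28.8%), 12 lower in micrometastasis over adjacent tissue of Ctrl (6.18%) and 0 higher in macrometastasis over micrometastasis of Ctrl (17.9%). Without cells of a high doublet score, 9 were lower in CPM in micrometastasis over adjacent tissue of Ctrl (1.84%). The difference in shares of cells was 14.7 points at 4 UMIs and 13.4 unthinned in micrometastasis, 1.28 at 3000 UMIs, 1.89 unthinned, 1.93 without high doublet scores and 5.17 with the division-role members in macrometastasis, and -0.750 unthinned in adjacent tissue. With shares held by cluster the ratios were 1.24 and 1.26. The cause of these changes was not tested. Cells of a high doublet score were a larger share of clusters 7, 8, 11 and 19 than of the mature neutrophil-like clusters. Leaving them out is therefore not neutral for the members.

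Within classes, 11 of 117 values changed direction. In micrometastasis these were progenitor-like (0.994) and mature neutrophil-like cells (0.963) with clusters made from the cell cycle genes too, and Kupffer or macrophage-like cells without high doublet scores (1.01) or as a mean over cells (1.05). In macrometastasis they were endothelial-like (1.36), Kupffer or macrophage-like (1.21) and mature neutrophil-like cells (1.07) with the division-role members, mature neutrophil-like cells without high doublet scores (1.03), and T-like cells without high doublet scores (0.711) or as a mean over cells (0.983). In adjacent tissue it was T-like cells without high doublet scores (1.71). The division-role list for shares of cells, the shares held by cluster and the values of single clusters without high doublet scores were chosen after seeing the data.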
